A study of Mus musculus with 18 samples.

Results

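The genes described here make, cut, cross-link or bind the interstitial matrix of the kidney. They are the collagens other than the chains of the glomerular basement membrane, the laminins outside that membrane, fibulins, fibrillins, matrix metalloproteinases and their inhibitors (TIMPs), ADAMTS proteases, lysyl oxidases, integrins, thrombospondins, fibronectin, and Sparc. Members were taken by gene symbol, without Col4a1 to Col4a5, Lama5, Lamb2, Lamc1, and Timp1, and no measured value entered the choice. There were 143 such genes among the 34509 gene symbols of the table of B6 and NZW, read by 282 of its 46643 probes.

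In the kidney, fibroblasts, pericytes, and mesangial cells lay down fibrillar collagen, which is trimmed by ADAMTS proteases, stiffened by lysyl oxidases, and broken down by metalloproteinases held in check by TIMPs. Integrins, each a pair of an alpha and a beta chain, tie cells to collagen, laminin, and fibronectin, and some of them release TGF-beta from its latent store in the matrix. Expansion of the interstitial matrix is a hallmark of scarring after glomerulonephritis.

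Total RNA from the kidney cortex of 15 mice, all 2 months old, was measured on 18 Illumina Mouse BeadChips. There were 3 mice of each strain: BALB/C and B6, then DBA1, NZW, and 129/svj. All mice had been challenged with anti-GBM antibodies, which bind the glomerular basement membrane and start a nephritis, and no unchallenged mice were among them. Strain differences that were there before the challenge therefore cannot be told apart from differences in the response. B6 and BALB/C are the strains resistant to this nephritis, and DBA1, 129/svj, and NZW are the sensitive ones. Mouse 1 of BALB/C, DBA1, and 129/svj had a second array, which was averaged with the first.

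The signals came in 2 tables, one with B6 and NZW, the other with BALB/C, DBA1, and 129/svj, and the table is thus a batch that some strains share and others do not. Resistant strains were therefore compared with sensitive strains within each table (B6 with NZW, and BALB/C with DBA1 and 129/svj averaged), and the pair of differences was averaged. Arrays had a median signal of 81.1 to 89.8 for B6 and NZW and of 118.5 to 151.6 for the other strains, and 30.5% to 36.4% of the probes were detected. All levels below are log2 intensities after background correction and normalization. Within a table, a level is compared between mice for 1 probe only, never between probes. Across the tables, probes were paired by a search key, and whether a pair reads the same sequence was not checked. Levels of strains from different tables can thus differ by probe or by table as well as by strain. Differences are log2 differences from limma with Benjamini-Hochberg adjustment over all tested probes, and a call is an adjusted p below 0.05. In whole cortex, fewer cells of a type and less RNA per cell cannot be told apart. In B6 and NZW, 4 of 4 podocyte genes and 5 of 5 proximal tubule genes passed the filter on detection. So did 4 of 4 thick limb and collecting duct genes, so these markers cannot tell cortex from whole kidney.

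Of the 282 probes, 100 (74 genes) had a key that was unique in both tables, 101 had a key shared by several probes, and 81 had no match. After the filter on detection, 40 probes of 36 genes were tested across the 5 strains and 92 probes of 71 genes between B6 and NZW in their own table. A total of 69 genes were tested nowhere. By role, the B6 and NZW fit reached 12 of 44 probes of the ADAMTS proteases, 10 of 34 of the metalloproteinases, and 4 of 5 of the TIMPs. Among the structural proteins it reached 5 of 27 probes of fibril-forming collagens, 17 of 50 of other collagens, 7 of 19 of laminins, and 7 of 18 of fibulins, fibrillins, and lysyl oxidases. It reached 13 of 39 probes of integrin alpha chains, 8 of 15 of integrin beta chains, and 3 of 12 of thrombospondins, fibronectin, and Sparc. Another 19 probes have a symbol that starts like a family name although the protein is no family member (6 tested), among them Itgb1bp1, which binds the tail of integrin beta 1, and Itgb4bp, an older name of the ribosome factor Eif6.

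Several well-known fibrosis genes could not be read. None of the 4 probes of Fn1 (fibronectin) and the single probe of Col1a2 was detected in more than 1 of the 6 mice of B6 and NZW, and the 2 probes of Col3a1 and the 4 of Col5a2 were detected in none. Fbln5, Loxl2, Itga5, Itgam, Itgb2, Itgb3, and Lamb1 also stayed below the filter there. For these genes no difference could be measured between B6 and NZW at this signal.

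In the comparison of resistant with sensitive strains, 3 of the 40 member probes were called higher (7.5%, against 6.54% of all 6896 tested probes) and 7 were called lower (17.5%, against 5.45% of all). The lower count was 3 without B6 mouse 3, 4 without any 1 of the other B6 mice, the NZW mice, or BALB/C mouse 1 or 2, and 0 with strain as a random block, where 2 were higher. Over all 6896 probes the lower calls fell too, from 376 to 251 without B6 mouse 3 and to 261 to 306 without those other mice. With the random block, 40 of all probes were lower and 65 higher. The 3 higher ones were Adamts9, Sparc, and Itgb8. The 7 lower ones were Lama3, Col14a1, Itgb1bp1, Lamb3, Itgb4bp, Itga8, and Adamts4. The median difference of the members was -0.02, against -0.01 over all probes, and 18 of 40 lay above 0. The calls were spread over the roles: 1 of 8 probes of integrin alpha chains, 1 of 2 of integrin beta chains, 2 of 5 of laminins, 2 of 6 of ADAMTS proteases, 1 of 5 of other collagens, 1 of 2 of thrombospondins, fibronectin, and Sparc, and 2 of 3 probes of genes that only share a family name. Limma called 0 of 3 metalloproteinases (2 at an unadjusted p below 0.05), 0 of 2 TIMPs, and 0 of 2 fibril-forming collagens (0 at an unadjusted p below 0.05 in both).

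Sparc (probe ILMN_1243212), a matricellular protein that binds collagen and shapes its fibres, measured 6.46, 6.88, and 6.27 in BALB/C, 5.52, 5.85, and 5.49 in B6, 5.15, 5.22, and 5.16 in DBA1, 5.02, 4.87, and 5.31 in 129/svj, and 5.13, 4.96, and 5.01 in NZW. All 6 resistant mice lay above all 9 sensitive mice, and Sparc was the single one of the 40 probes with no overlap. How many of all tested probes separate these mice was not counted. The probe was detected in all 6 resistant mice and in no sensitive mouse, so it passed the filter on detection through the resistant mice alone. The difference was 1.0 (SE 0.11, adjusted p = 1.3e-05), and 1.06 (adjusted p = 0.0034) when the strain was a random block. That block used 1 consensus correlation of 0.17 between mice of a strain for all probes. The first p-value measures the spread between mice of a strain, and the second takes in spread between strains only through that correlation. Because the sensitive mice were below detection, the fold is a bound: BALB/C was at least 1.87-fold over DBA1 and at least 1.89-fold over 129/svj, and B6 at least 1.12-fold over NZW.

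Itgb8 (ILMN_2444158) is the beta chain of the integrin alpha v beta 8, which activates latent TGF-beta. It measured 6.22, 6.50, and 6.10 in BALB/C, 5.77, 5.69, and 5.89 in B6, 5.17, 5.07, and 5.99 in DBA1, 5.04, 5.20, and 5.12 in 129/svj, and 5.48, 4.90, and 5.09 in NZW. DBA1 mouse 3 was at the level of B6, and the other 8 sensitive mice lay below all resistant mice. The difference was 0.82 (SE 0.14, adjusted p = 0.0011), and 0.85 (adjusted p = 0.03) with the strain as a random block. Sparc and Itgb8 were the 2 of the 10 called members that passed with that block.

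Adamts9 (ILMN_1257724), a protease that cleaves large proteoglycans, was a B6 signal. Its B6 levels were 7.99, 8.0, and 7.76, while the 12 mice of the other 4 strains lay between 4.67 and 5.21 and were all below detection. The probe thus passed the filter on detection through the B6 mice alone. Its average difference of 1.52 (SE 0.09, adjusted p = 1.4e-08) came from the B6 table, where B6 was at least 5.51-fold over NZW (difference 3.15, adjusted p = 2.6e-10). In the other table the difference was -0.12 (SE 0.11). The signal rests on 1 of 3 Adamts9 probes, since the other 2 (ILMN_1258398 and ILMN_2469216) did not pass the filter on detection in the fit across strains or in that of B6 and NZW. The resistant strain BALB/C was thus at the level of the sensitive strains.

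**Figure D1:**
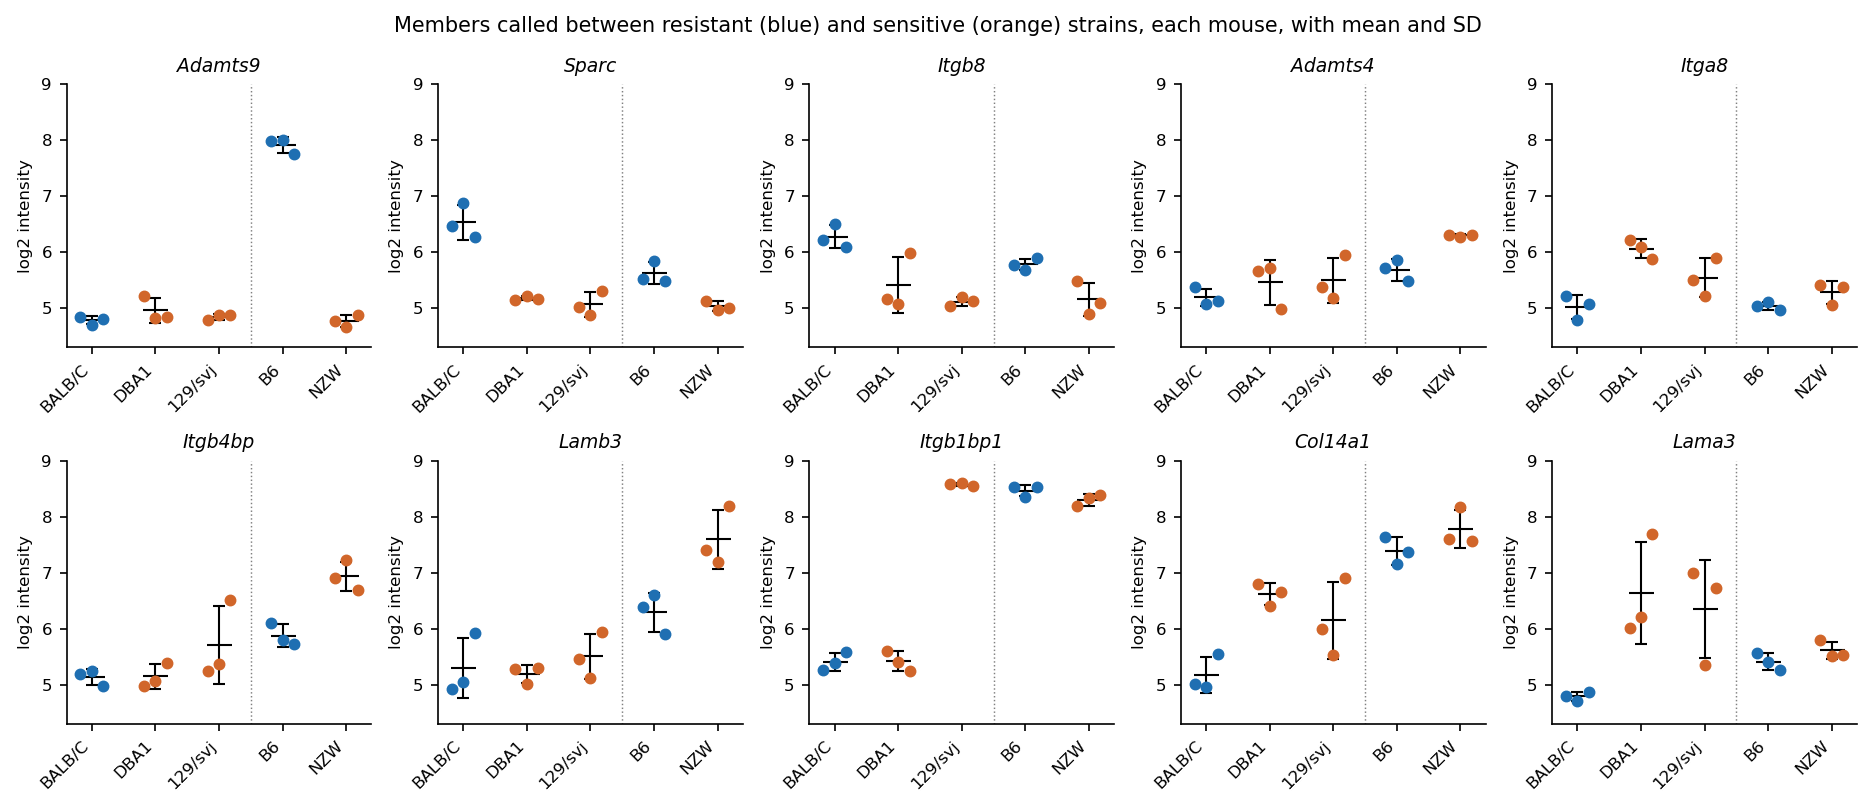
Log2 intensity of the 10 member probes called between resistant and sensitive strains, 1 panel a probe, with a point for each mouse and the mean ± SD of each strain (n = 3). Resistant strains are blue, sensitive strains orange, and the dotted line divides the deposited tables. Sparc alone places all 6 blue points above all 9 orange points, Adamts9 stands high in B6 only, and Itgb1bp1 is low in BALB/C and DBA1.

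The 7 lower probes fell into different strain patterns. Col14a1 (ILMN_1229714), a collagen that sits on the surface of fibrils, measured 5.01, 4.96, and 5.54 in BALB/C, 6.80, 6.41, and 6.66 in DBA1, 6.0, 5.53, and 6.90 in 129/svj, 7.64, 7.15, and 7.37 in B6, and 7.60, 8.17, and 7.57 in NZW. BALB/C was below detection in all 3 mice, and its highest mouse was level with the lowest 129/svj mouse. The average difference was -0.80 (SE 0.19, adjusted p = 0.011). The second Col14a1 probe (ILMN_2591027) gave -0.45 and was not called (adjusted p = 0.097).

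Lama3 and Lamb3 encode chains of the laminin that anchors epithelia to their basement membrane, and each was lower in a different table. Lama3 (ILMN_1238827) measured 4.80, 4.71, and 4.87 in BALB/C, 6.01, 6.21, and 7.69 in DBA1, 7.0, 5.35, and 6.72 in 129/svj, 5.56, 5.40, and 5.26 in B6, and 5.79, 5.51, and 5.53 in NZW. BALB/C lay below every mouse of DBA1 and 129/svj, while B6 and NZW overlapped. Its average difference was -0.95 (SE 0.27, adjusted p = 0.029), and the second Lama3 probe (ILMN_2506895) gave 0.17 (adjusted p = 0.73).

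Lamb3 (ILMN_2605512) measured 6.38, 6.60, and 5.91 in B6, 7.40, 7.19, and 8.20 in NZW, 4.93, 5.04, and 5.92 in BALB/C, 5.28, 5.01, and 5.30 in DBA1, and 5.45, 5.12, and 5.94 in 129/svj. All B6 mice lay below all NZW mice, and in the other table the probe was detected in 2 of 9 mice. The average difference was -0.68 (SE 0.20, adjusted p = 0.038). With 1 mouse left out at a time, the calls of Lama3 and Lamb3 held in 6 and 7 of 15 fits, with differences of -1.08 to -0.82 for Lama3 and -0.83 to -0.53 for Lamb3.

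Itga8 (ILMN_2653037), the integrin alpha chain of mesangial cells that binds nephronectin, measured 5.21, 4.78, and 5.08 in BALB/C, 6.22, 6.09, and 5.88 in DBA1, 5.50, 5.21, and 5.90 in 129/svj, 5.03, 5.11, and 4.96 in B6, and 5.42, 5.05, and 5.37 in NZW. No mouse of the resistant strains was detected, and 5 of the sensitive mice were, 3 of them DBA1. The probe thus passed the filter on detection through the sensitive mice alone. The average difference was -0.51 (SE 0.12, adjusted p = 0.0088), and the BALB/C mice lay at or below all 6 mice of DBA1 and 129/svj. DBA1 was at least 1.33-fold over BALB/C.

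Adamts4 (ILMN_2644433), an aggrecan-cleaving protease, measured 5.71, 5.86, and 5.48 in B6, 6.31, 6.28, and 6.31 in NZW, 5.37, 5.08, and 5.13 in BALB/C, 5.67, 5.72, and 4.99 in DBA1, and 5.37, 5.18, and 5.95 in 129/svj. NZW lay above B6 in all 3 mice, and the strains of the other table overlapped. The average difference was -0.45 (SE 0.14, adjusted p = 0.048), and the call held in 3 of 15 fits with 1 mouse left out (-0.51 to -0.40).

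The other 2 calls were genes named after integrins. Itgb1bp1 (ILMN_1213848) measured 8.58, 8.60, and 8.55 in 129/svj, 8.53, 8.35, and 8.53 in B6, 8.19, 8.33, and 8.39 in NZW, 5.26, 5.38, and 5.58 in BALB/C, and 5.60, 5.41, and 5.25 in DBA1. BALB/C and DBA1 were below detection in all 6 mice, and the probe was detected in all mice of the other 3 strains, with a resistant and a sensitive strain on the low side. 129/svj was at least 7.62-fold over BALB/C and at least 7.68-fold over DBA1. The signal rests on 1 of 2 Itgb1bp1 probes, since the other was tested neither across strains nor between B6 and NZW. Which transcripts the probe reads was not analysed here. Itgb4bp (ILMN_1255935) measured 6.11, 5.80, and 5.73 in B6 and 6.90, 7.22, and 6.69 in NZW, with no overlap, and was detected in 1 of 9 mice of the other table. Its average difference was -0.67 (SE 0.18, adjusted p = 0.02), and that of Itgb1bp1 was -0.71 (SE 0.08, adjusted p = 3.1e-05).

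The gelatinase and its inhibitors were not called. Mmp2 (ILMN_2678218), the gelatinase made by stromal cells, measured 6.94, 7.64, and 8.27 in BALB/C, 8.37, 8.77, and 9.12 in DBA1, 8.03, 7.63, and 8.83 in 129/svj, 8.50, 8.82, and 8.02 in B6, and 8.65, 8.91, and 8.70 in NZW. The groups overlapped in both tables, and the average difference was -0.57 (adjusted p = 0.12). Timp2 gave -0.13 (adjusted p = 0.54) and Timp3 (ILMN_1232928) 0.01 (adjusted p = 0.98). The value was -0.02 for Thbs1, -0.32 for Lama2 (adjusted p = 0.28), and 0.49 for the lysyl oxidase Loxl4 (adjusted p = 0.17).

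The averaged comparison joined tables that differed for some members. In BALB/C against DBA1 and 129/svj, 2 of 40 probes were called higher (5.0%, against 5.1% of all tested probes) and 7 lower (17.5%, against 4.54%). The median was -0.12, against 0.00 over all. In B6 against NZW over the same 40 probes, 3 were called higher (7.5%, against 5.84%) and 2 lower (5.0%, against 3.99%), with a median of -0.00, against -0.03 over all.

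**Figure D2:**
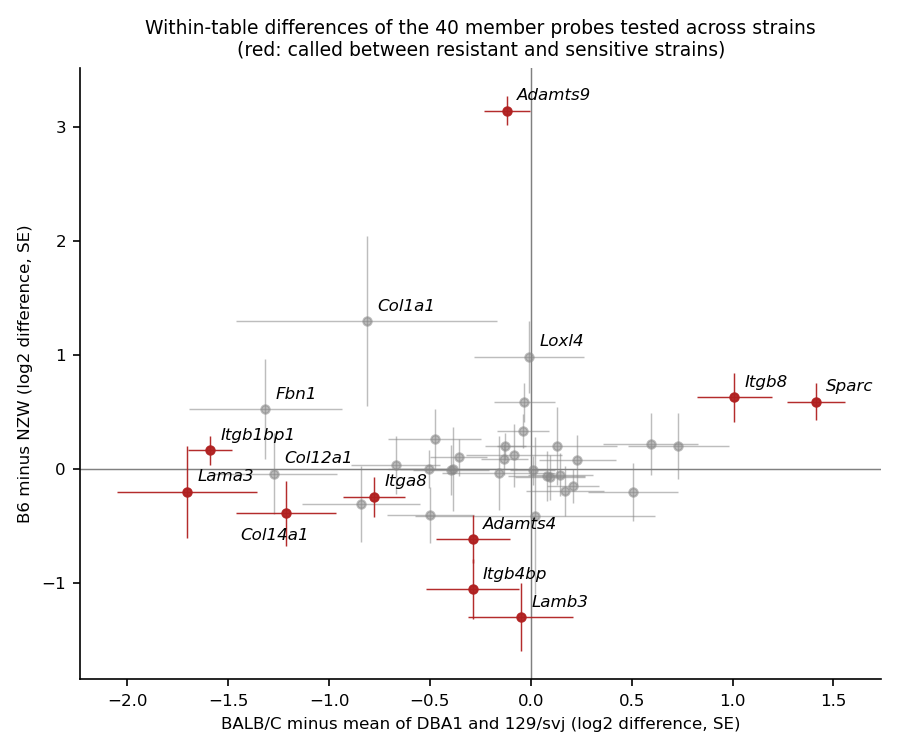
Difference of BALB/C from the average of DBA1 and 129/svj (horizontal axis) and the difference between B6 and NZW (vertical axis) for the 40 member probes tested across strains, both on the log2 scale with standard errors. Red points are the 10 probes called in the average of both. Sparc and Itgb8 lie above 0 on both axes, Adamts9 lies at the top at 3.15 with a horizontal value of -0.12, and Lama3 lies at -1.70 on the horizontal axis.

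Of the 7 lower probes, 3 were of collagen and microfibril genes (Col12a1, Col14a1, and Fbn1). Fitted in the table of BALB/C alone, Col12a1 (adjusted p = 0.078) and Fbn1 (adjusted p = 0.13) were not called. Col12a1 (ILMN_1224404), another collagen of fibril surfaces, measured 5.73, 5.78, and 5.59 in BALB/C, 7.0, 7.39, and 7.88 in DBA1, and 6.18, 5.71, and 7.67 in 129/svj. All 3 DBA1 mice lay above BALB/C, while 129/svj mouse 2 was level with it. The difference was -1.27 (SE 0.31, adjusted p = 0.016), and for Col14a1 it was -1.21 (SE 0.25, adjusted p = 0.0048).

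Fbn1 (ILMN_2772556), the chief protein of microfibrils that store latent TGF-beta, measured 5.00, 5.10, and 5.37 in BALB/C, 6.31, 7.28, and 7.57 in DBA1, and 5.21, 5.23, and 7.23 in 129/svj. DBA1 mice were all above BALB/C, 129/svj mice 1 and 2 were not detected, and 129/svj mouse 3 was high. The difference was -1.32 (SE 0.38, adjusted p = 0.041), a call that held in 5 of 15 fits with 1 mouse left out (-1.5 to -0.98). DBA1 was at least 2.65-fold over BALB/C, which was below detection in all 3 mice.

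The remaining lower calls were Lama3 (-1.70, SE 0.35, adjusted p = 0.0048), Itga8 (-0.78, SE 0.15, adjusted p = 0.0038), Itgb1bp1 (-1.59, SE 0.11, adjusted p = 1.2e-07), and Mmp23 (-0.50, SE 0.15, adjusted p = 0.041). Mmp23 (ILMN_1237364), a membrane-anchored metalloproteinase, measured 7.05, 7.17, and 7.32 in BALB/C, 7.88, 8.13, and 7.39 in DBA1, and 7.72, 7.48, and 7.51 in 129/svj, without overlap. Sparc (1.41, SE 0.14, adjusted p = 6.1e-06) and Itgb8 (1.01, SE 0.18, adjusted p = 0.0021) were higher. Itga8, Itgb8, Lama3, Mmp23, and Sparc were the 5 of 40 probes whose BALB/C mice did not overlap with those of DBA1 and 129/svj. How many of all tested probes were without such overlap was not counted, so this is no result about the members as a set.

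Of 4 macrophage genes tested in this table alone, 1 was called lower in BALB/C, against 476 of all 15818 tested rows. The summed signal of 4 of 9 macrophage genes was 558.1, 412.6, and 640.8 in BALB/C, 1040.1, 1524.9, and 2051.0 in DBA1, and 637.7, 492.6, and 1809.6 in 129/svj. All DBA1 mice and 129/svj mouse 3 lay above BALB/C, while 129/svj mice 1 and 2 lay within its range. For 2 of 6 fibroblast and pericyte genes the sums were 678.3 to 874.8 in BALB/C, 724.0, 753.0, and 1401.2 in DBA1, and 1116.1, 909.9, and 1718.4 in 129/svj. Here DBA1 mice 1 and 2 lay within the range of BALB/C, unlike in the macrophage sum. The 1 smooth muscle gene read was at 841.8 to 1229.5 in BALB/C, 1350.6 to 1923.6 in DBA1, and 632.9 to 2047.1 in 129/svj. The sum of 4 of 5 proximal tubule genes was 27512.5 to 32156.6 in BALB/C, 22697.4 to 31876.1 in DBA1, and 24706.0, 26021.7, and 17986.2 in 129/svj. Of these 4 genes, 1 was called higher in BALB/C, against 472 of all 15818 tested rows. The 1 neutrophil gene read was at 291.7, 28.9, and 1026.6 in 129/svj, against 145.9 to 344.6 in BALB/C and 166.1 to 276.4 in DBA1. In 129/svj, mouse 3 was thus highest for smooth muscle and neutrophils and lowest for the proximal tubule. The part of these cells in the differences was not tested.

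Between the sensitive strains DBA1 and 129/svj, 4 of 40 probes were called (10%, against 7.29% of all tested probes). Adamtsl2 (ILMN_2650115), a secreted protein that binds fibrillin microfibrils, measured 6.85, 7.54, and 7.47 in DBA1 and 5.57, 6.08, and 6.52 in 129/svj (difference 1.23, SE 0.26, adjusted p = 0.0079). All DBA1 mice were above all 129/svj mice. An Itga6 probe (ILMN_1236600), for the laminin-binding alpha 6 integrin, measured 6.25, 6.83, and 5.92 in DBA1 and 4.69, 4.75, and 5.02 in 129/svj, where it was below detection. DBA1 was at least 1.64-fold higher (adjusted p = 0.0033). Another Itga6 probe (ILMN_1223670) ran in the opposite direction without being called, at 5.26, 5.51, and 5.08 in DBA1, all below detection, and 5.61, 5.76, and 5.61 in 129/svj (-0.38, adjusted p = 0.28). The remaining pair was Itgb1bp1 (-3.16, SE 0.13, adjusted p = 2.4e-10) and the collagen Col20a1 (-1.02, SE 0.27, adjusted p = 0.031). Col20a1 measured 6.10, 5.99, and 5.94 in DBA1 and 7.40, 7.44, and 6.25 in 129/svj, again without overlap.

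The test of whether the within-table differences were unlike called 3 of 40 members (7.5%, against 10.3% of all tested probes). They were Adamts9 (-3.27, SE 0.17, adjusted p = 6.4e-09), Itgb1bp1 (-1.76, SE 0.17, adjusted p = 4.5e-06), and Sparc (0.82, SE 0.22, adjusted p = 0.024), where the B6 table's difference was taken from that of the BALB/C table. Sparc was thus higher in the resistant strain of both tables, by 1.41 in that of BALB/C and 0.59 in that of B6. Across paired probes the B6 call held in 9 of 15 fits with 1 mouse left out (0.47 to 0.65) and in 4 of 9 other settings. The BALB/C call held in 15 of 15 and 9 of 9. Leaving out a mouse of a strain outside a comparison changes the estimate of spread but cannot change the difference. Here those were the mice of the other table. For Col1a1 (-2.11, adjusted p = 0.23), Fbn1 (-1.84, adjusted p = 0.057), and Lama3 (-1.5, adjusted p = 0.095) the test was not passed.

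The largest share of the matrix genes was read between B6 and NZW in their own table, where 92 member probes of 71 genes were tested. B6 was called higher in 15 (16.3%, against 9.24% of all 16766 tested probes) and lower in 6 (6.52%, against 9.6%). The median difference of the members was 0.12, against -0.04 over all probes, and 60 of 92 lay above 0. Arrays scaled to a common 75th percentile moved the median of all probes to -0.13 and the share of higher calls among all calls from 49.0% to 37.3%, with 16 member probes higher and 7 lower. The higher count was 9 without NZW mouse 1, B6 mouse 1, or B6 mouse 2, 8 without NZW mouse 3 (where 1306 of all 16766 probes were higher), 14 without NZW mouse 2, and 18 without B6 mouse 3. Over all probes the higher calls fell from 1549 to 1381, 1405, 1182, 1140, and 1243 without NZW mouse 1 or 2 or B6 mouse 1, 2, or 3. The methods' t-test called 3 of the 92 member probes higher and 3 lower, against 979 higher and 873 lower of all 16766 probes.

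**Figure D3:**
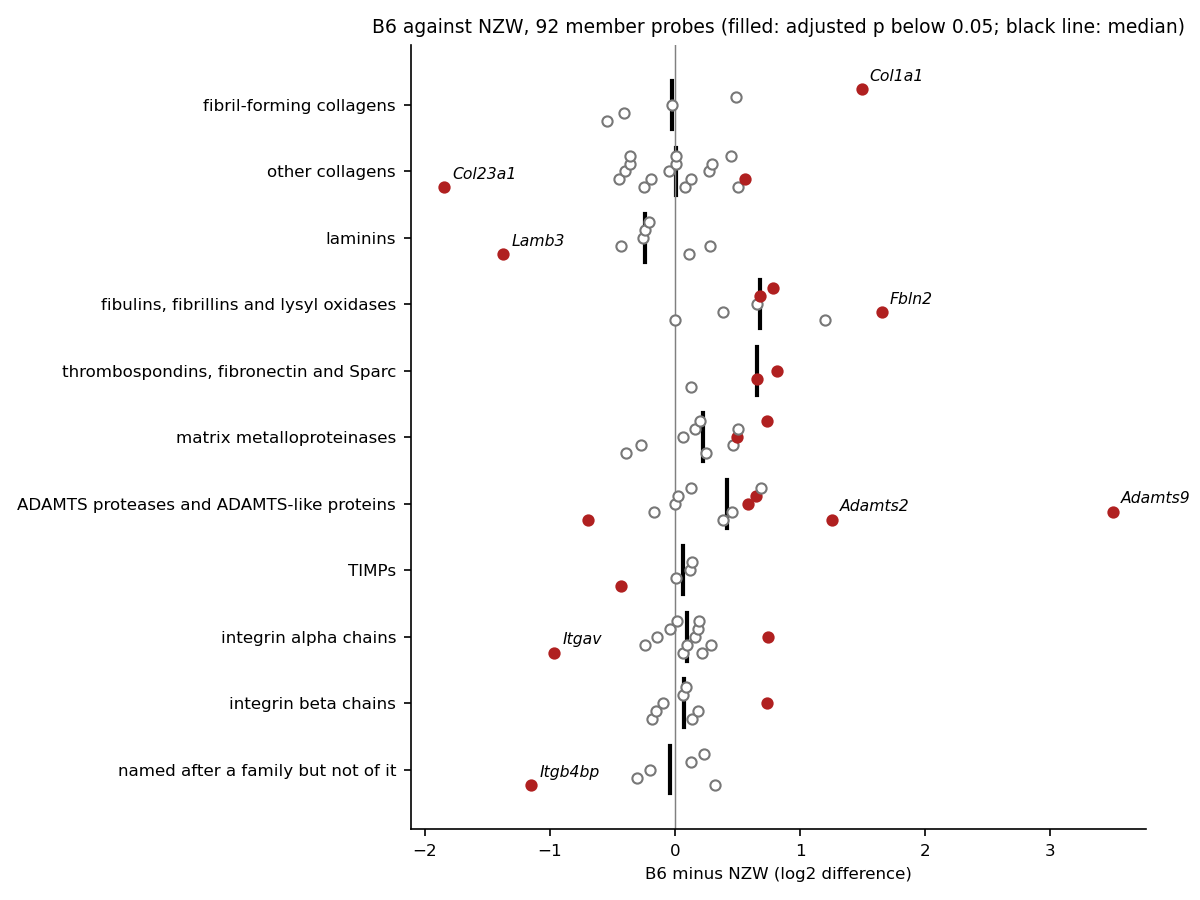
Difference between B6 and NZW in their own table for the 92 member probes tested, on the log2 scale, grouped by role, with filled points for the called probes and a black line for the median of each role. The medians are 0.42 for the ADAMTS group, 0.68 for fibulins, fibrillins, and lysyl oxidases, and 0.66 for thrombospondins, fibronectin, and Sparc, while those of fibril-forming collagens (-0.02), other collagens (0.01), and integrin beta chains (0.07) lie near 0.

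By role, 4 of 12 probes of the ADAMTS group were called higher and 1 lower, with a median of 0.42. For fibulins, fibrillins, and lysyl oxidases 3 of 7 were higher (median 0.68), and for thrombospondins, fibronectin, and Sparc 2 of 3 (median 0.66). Of the metalloproteinases 2 of 10 were higher (median 0.22). In 17 probes of other collagens, 1 was higher and 1 lower (median 0.01), and in 7 laminin probes 1 was lower (median -0.24). Of 21 integrin probes, 1 alpha and 1 beta probe were higher and 1 alpha probe was lower.

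Sequences around the starts of genes called higher in B6 are shown here because these genes differed in the same direction, with Mmp3 and Thbs2 holding a TATA box within the bases shown and Sparc and Adamts9 as the members that led the strain comparison. They are from RefSeq on GRCm38.p6, run 5′ to 3′ along the gene's own strand, and cover 150 bases before the start to base 30 of the transcript. Capitals mark the TATA box TATAAA, the AP-1 site TGANTCA, the CCAAT box CCAAT, and the GC box GGGCGG on either strand, overlapping matches included. The windows are chr6:91212614-91212793 on the plus strand for Fbln2, chr9:7445672-7445851 on the plus strand for Mmp3, chr14:54431448-54431627 on the plus strand for Mmp14, chr17:14694233-14694412 on the minus strand for Thbs2, chr11:55420051-55420230 on the minus strand for Sparc, and chr6:92943505-92943684 on the minus strand for Adamts9.
Fbln2: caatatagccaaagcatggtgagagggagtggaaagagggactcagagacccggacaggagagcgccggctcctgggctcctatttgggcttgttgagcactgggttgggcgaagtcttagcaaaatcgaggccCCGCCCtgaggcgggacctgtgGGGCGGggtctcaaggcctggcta
Mmp3: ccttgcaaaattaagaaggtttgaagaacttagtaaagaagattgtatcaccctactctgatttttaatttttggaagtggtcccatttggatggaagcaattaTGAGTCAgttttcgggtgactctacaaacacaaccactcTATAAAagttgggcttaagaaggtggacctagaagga
Mmp14: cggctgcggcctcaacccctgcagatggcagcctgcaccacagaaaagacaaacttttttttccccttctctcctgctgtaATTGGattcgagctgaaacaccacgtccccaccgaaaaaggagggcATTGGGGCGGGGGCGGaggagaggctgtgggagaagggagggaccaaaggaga
Thbs2: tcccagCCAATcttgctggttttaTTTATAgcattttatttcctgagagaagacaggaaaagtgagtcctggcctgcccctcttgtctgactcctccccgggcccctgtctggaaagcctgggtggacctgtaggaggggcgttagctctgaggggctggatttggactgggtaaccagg
Sparc: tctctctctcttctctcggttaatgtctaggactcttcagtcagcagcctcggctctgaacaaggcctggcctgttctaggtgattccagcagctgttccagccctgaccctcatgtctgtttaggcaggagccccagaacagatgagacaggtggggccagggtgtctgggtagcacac
Adamts9: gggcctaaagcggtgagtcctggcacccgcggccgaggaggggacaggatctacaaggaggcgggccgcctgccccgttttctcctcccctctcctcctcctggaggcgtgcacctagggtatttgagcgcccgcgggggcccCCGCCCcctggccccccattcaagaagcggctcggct
From 250 bases before the start to base 30, a TATA box was in 3 of the 11 genes called higher that had an entry, an AP-1 site in 1, a CCAAT box in 4, and a GC box in 6. Of the 95 members with an entry, 17.9% held a TATA box, 9.47% an AP-1 site, 23.2% a CCAAT box, and 52.6% a GC box, against 13.7%, 7.57%, 36.6%, and 34.9% of all 27025 promoters. These are matches of letters only.

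Adamts2 (ILMN_2729103), which trims the amino end of procollagen, measured 8.90, 9.13, and 8.04 in B6 and 7.25, 7.47, and 7.59 in NZW. All B6 mice were higher (1.25, adjusted p = 0.010). Its second probe (ILMN_1226259) gave 0.69 (adjusted p = 0.11), with B6 at 7.53, 7.89, and 6.72 and NZW at 6.48, 6.84, and 6.77, where B6 mouse 3 lay among the NZW mice.

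Mmp14 (ILMN_1240726), the membrane protease that cleaves collagen and activates the precursor of Mmp2, measured 10.03, 9.97, and 9.63 in B6 and 8.87, 9.44, and 9.13 in NZW (0.73, adjusted p = 0.019). Mmp3 (ILMN_2753809), or stromelysin, measured 5.63, 5.75, and 5.33 in B6 and 5.17, 4.98, and 5.07 in NZW. B6 was higher in all 3 mice for both genes, and Mmp3 was below detection in NZW, so that B6 was at least 1.19-fold higher (adjusted p = 0.033). That Mmp3 probe passed the filter on detection through the B6 mice alone. The other Mmp3 probe gave 0.20 (adjusted p = 0.43). Mmp2 gave -0.27 and Mmp9 0.46 (adjusted p = 0.38).

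Among the other ADAMTS proteases, Adamts9 measured 8.27, 8.29, and 8.02 in B6 and 4.70, 4.62, and 4.77 in NZW, at least 7.32-fold apart (adjusted p = 2.3e-07). Adamts15 measured 6.64, 6.36, and 6.33 in B6 and 5.63, 5.86, and 5.91 in NZW (0.64, adjusted p = 0.010). Adamts1 measured 5.99, 5.90, and 5.79 in B6 and 5.27, 5.61, and 5.04 in NZW (0.59, adjusted p = 0.030). B6 was above NZW in all mice for these 3 proteoglycan-cleaving enzymes, and Adamts4 went the other way (-0.70, adjusted p = 0.0084).

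Of the elastic fibre genes, Fbln2 (ILMN_1245307), a fibulin of vessel walls and basement membranes, measured 6.42, 8.05, and 6.32 in B6 and 5.38, 5.37, and 5.08 in NZW (1.65, adjusted p = 0.022). Loxl1, which cross-links elastin, measured 10.21, 9.91, and 9.50 in B6 and 8.90, 9.42, and 8.95 in NZW (0.78, adjusted p = 0.030). Neither gene overlapped between the strains, and B6 mouse 2 carried the highest Fbln2 level, with a difference of 1.09 (adjusted p = 0.002) without it. Fbln1 (ILMN_2449644) measured 8.19, 8.45, and 7.87 in B6 and 7.37, 7.54, and 7.57 in NZW (0.68, adjusted p = 0.017), while the other Fbln1 probe (ILMN_2728985) gave -0.00. Fbn1 (0.66, adjusted p = 0.06), Lox (0.38, adjusted p = 0.32), and Loxl4 (1.20, adjusted p = 0.053) did not pass.

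Thbs2, a matricellular thrombospondin that binds metalloproteinases, measured 7.83, 7.73, and 7.39 in B6 and 6.54, 7.19, and 6.78 in NZW (0.81, adjusted p = 0.017). Sparc gave 0.66 (adjusted p = 0.013) in this table. Thbs1, an activator of latent TGF-beta, gave 0.13 and did not pass. For Thbs2 and Sparc all B6 mice were above all NZW mice.

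The calls of Loxl1, Mmp14, Thbs2, and Mmp3 each held in 2 of 6 fits with 1 mouse left out, with differences of 0.61 to 0.97, 0.59 to 0.88, 0.66 to 0.99, and 0.41 to 0.62. Those of Adamts2, Adamts9, Sparc, and Itga6 held in 6 of 6. The call of Adamts1 held in 1 of 6 (0.45 to 0.74), of Fbln1 in 3 (0.54 to 0.83), and of Fbln2 in 4 (1.09 to 1.96).

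Col1a1, the alpha 1 chain of type I collagen, showed how far mice of a strain spread. In B6 it measured 7.95, 9.05, and 6.94, and in NZW 6.57, 6.61, and 6.28. The lowest B6 mouse was above the highest NZW mouse, and the difference was 1.49 (adjusted p = 0.045). The call was kept without B6 mouse 3 (2.01, adjusted p = 0.0033) and lost without any other mouse: 0.96 without B6 mouse 2 (adjusted p = 0.06), 1.5 without B6 mouse 1 (adjusted p = 0.1), and 1.39 to 1.55 without 1 of the NZW mice.

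Across the strains, Col1a1 measured 5.41, 5.11, and 6.71 in BALB/C, 5.68, 7.33, and 7.69 in DBA1, and 5.39, 5.00, and 8.26 in 129/svj. Within 129/svj, mouse 3 stood far above mice 1 and 2, and DBA1 mouse 1 was down among the BALB/C mice. The difference between resistant and sensitive strains was 0.24 (SE 0.50, adjusted p = 0.83), and between BALB/C and the strains of its table -0.81 (adjusted p = 0.52).

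**Figure D4:**
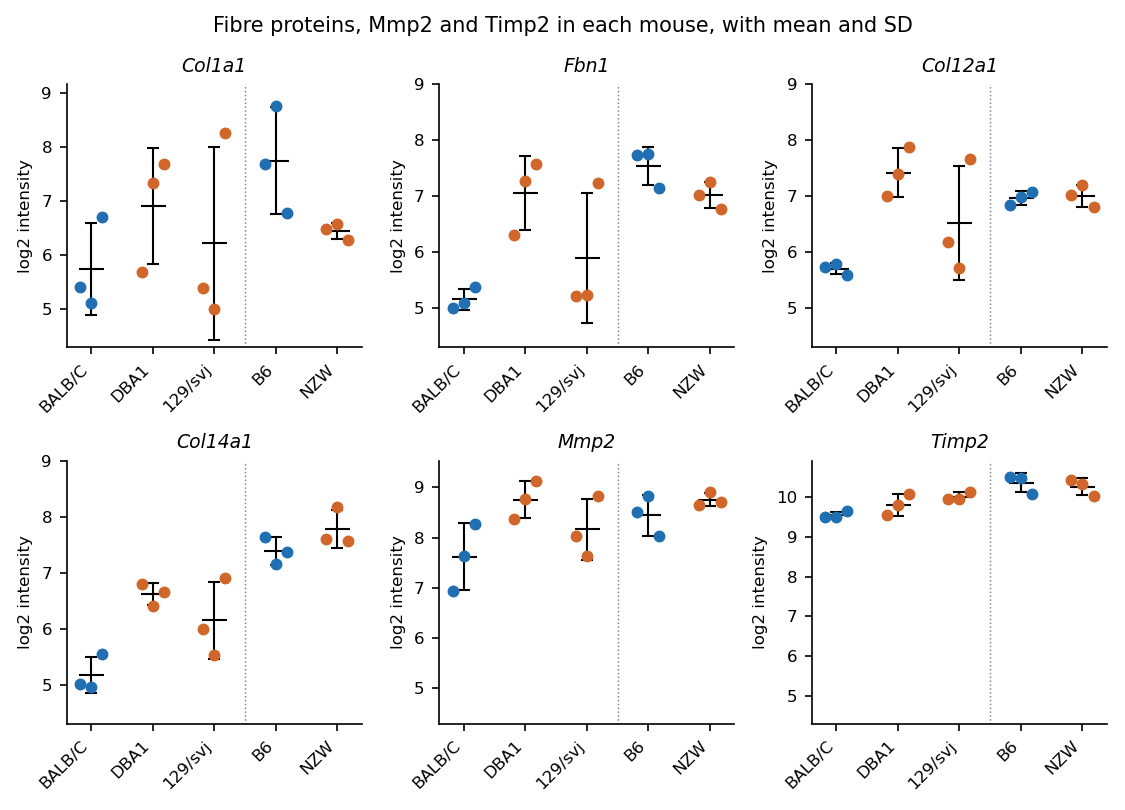
Log2 intensity of Col1a1, Fbn1, Col12a1, Col14a1, Mmp2, and Timp2 in each of the 15 mice, by strain, with the mean ± SD (n = 3), resistant strains in blue and sensitive strains in orange. For Col1a1, 129/svj mouse 3 stands at 8.26 above its strain mates at 5.39 and 5.00, and B6 mouse 2 is the highest of all at 8.75. Timp2 varies least, from 9.50 to 10.51.

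Some of the same mice stood out over the fibre genes. Over the 32 probes of collagens, fibulins, fibrillins, lysyl oxidases, thrombospondins, and Sparc, B6 mouse 2 was the highest B6 mouse in 17 (53.1%, against 29.0% of all tested probes) and B6 mouse 3 in 5 (15.6%, against 36.6%). In the other table, 129/svj mouse 3 was the highest of its strain in 8 of 12 such probes (66.7%, against 36.2%), and BALB/C mouse 3 in 7 of 12 (58.3%, against 37.1%). DBA1 mouse 3 was the highest in 5 of 12 (41.7%, against 38.6%). NZW mouse 3, the lowest of its strain for Col1a1, was the highest in 14 of 32 (43.8%, against 30.9%).

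Markers of some other cells moved with B6 mice 2 and 3. The summed signal of 7 of 9 macrophage genes was 3902.8, 6161.5, and 3245.1 in B6 and 2893.8, 2412.8, and 3051.4 in NZW, and that of 5 of 6 fibroblast and pericyte genes was 8300.2, 9174.7, and 5421.5 in B6 and 6420.6, 6306.1, and 5689.6 in NZW. B6 mouse 2 was highest and B6 mouse 3 lowest of its strain in both sums. The fibroblast list holds Dcn and Lum, which are also on the list of other matrix genes below. Other sums were not in this order. Neutrophil genes gave 1388.4, 6963.8, and 5509.7 in B6, endothelial genes 4874.4, 4761.4, and 4610.8, and T lymphocyte genes 377.1, 370.1, and 390.4. For 2 of 4 smooth muscle genes the B6 mice were at 3183.1, 3289.9, and 2258.3, with mouse 2 again highest and mouse 3 lowest. They did not overlap with NZW, at 1351.7 to 1741.8. Limma called 0 of the 5 fibroblast genes (2 at an unadjusted p below 0.05), while C1qb among the macrophage genes (1.02) and Acta2 of smooth muscle (0.95) were called. Of the tubule injury genes 2 of 5 were higher in B6 and 3 lower, and 1 of 5 proximal tubule and 1 of 4 podocyte genes was lower. Over all tested probes, 9.24% were called higher and 9.6% lower. Limma called 0 of 5 endothelial genes (1 at an unadjusted p below 0.05), 0 of 1 platelet gene (1 at an unadjusted p below 0.05), and 0 of 5 neutrophil, 0 of 5 T lymphocyte, 0 of 1 B lymphocyte, and 0 of 4 thick limb and collecting duct genes (0 at an unadjusted p below 0.05 in each). The part of these cells in the matrix differences was not tested.

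Of the 17 probes of other collagens, 2 were called between B6 and NZW. Col16a1, a minor collagen of fibril surfaces, measured 7.47, 7.45, and 7.53 in B6 and 6.89, 6.95, and 6.92 in NZW (0.56, adjusted p = 0.0044) and SDs of 0.04 and 0.03 (n = 3). Col23a1, a transmembrane collagen, measured 5.21, 5.14, and 5.13 in B6 and 6.94, 7.21, and 6.87 in NZW. It was below detection in all B6 mice, and NZW was at least 3.30-fold higher (adjusted p = 1.3e-05). Col23a1 thus passed the filter on detection through the NZW mice alone. The chains of type VI collagen gave 0.50 and 0.45 (Col6a1), 0.13 and 0.27 (Col6a2), and 0.08 (Col6a3). Col5a1 (0.49, adjusted p = 0.33), Col15a1 (-0.05), and Col18a1 (0.01, adjusted p = 0.97) were not called either.

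Among the laminins, Lamb3 was lower in B6 (-1.37, adjusted p = 0.012). Lama4, a laminin chain of vessels, gave -0.26. Lamb3 measured 6.47, 6.72, and 5.96 in B6 and 7.57, 7.29, and 8.40 in NZW, and the strains did not overlap.

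The integrins gave calls on single probes. Itgav (ILMN_1238119), for the alpha v chain that pairs with Itgb8 among others, measured 5.60, 5.93, and 5.86 in B6 and 6.65, 6.98, and 6.65 in NZW (-0.97, adjusted p = 0.0017). Its second probe (ILMN_1251946) measured 5.56, 5.89, and 5.31 in B6 and 5.37, 5.83, and 5.68 in NZW (-0.04, adjusted p = 0.9). The 2 probes thus gave different answers for the gene, and which transcripts they read was not analysed here. Itgb8 (0.74, adjusted p = 0.014) and 1 of 5 Itga6 probes (ILMN_1223670; 0.74, adjusted p = 0.0060) were higher in B6. The other integrin chains Itgb1 (-0.19 and 0.06), Itga3 (0.06), Itgb5 (0.09 and -0.10), and Itgb6 (0.13) were not called.

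Probes of Timp3, the inhibitor that binds to the matrix, also disagreed. ILMN_2614759 measured 7.36, 7.47, and 7.60 in B6 and 7.96, 7.90, and 7.86 in NZW (-0.43, adjusted p = 0.026). ILMN_2741096 measured 13.71, 13.68, and 13.76 in B6 and 13.66, 13.46, and 13.64 in NZW (0.13), and the remaining probe gave 0.01. The B6 mice were lowest on one probe and highest on another. Timp2 gave 0.12 (adjusted p = 0.67).

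A fit of the other table alone, added after the tables had been seen, read 38 rows of 33 member genes in BALB/C, DBA1, and 129/svj. In BALB/C against the others 6 were called (15.8%, against 5.99% of all 15818 tested rows): Sparc and Itgb8 higher, and Col14a1, Itgb1bp1, Itga8, and Lama3 lower. It added rows of Fbln1 and Adamts2. Fbln1 measured 5.68, 5.40, and 6.09 in BALB/C, 6.26, 6.14, and 7.26 in DBA1, and 6.33, 5.75, and 7.14 in 129/svj (-0.76, adjusted p = 0.25). Adamts2 measured 4.81, 5.12, and 5.89 in BALB/C, 5.46, 6.84, and 7.39 in DBA1, and 6.07, 5.22, and 7.5 in 129/svj (-1.14, adjusted p = 0.28). The strains overlapped for both genes, with 129/svj mouse 3 high again. Between DBA1 and 129/svj 3 rows were called (7.89%, against 4.48%), those of Itga6, Adamtsl2, and Itgb1bp1.

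A list of 73 other matrix genes (TGF-beta and its binding proteins, proteoglycans, collagen-modifying enzymes, plasminogen activators, and adhesion proteins) was read beside the members. Between resistant and sensitive strains limma called 0 of the 18 tested, and 0 at an unadjusted p below 0.05. Over all 6896 tested probes, 6.54% were called higher and 5.45% lower. Between B6 and NZW in their own table, 8 of 53 were higher (against 9.24% of all tested probes) and 2 lower (against 9.6%), with a median of 0.16. Higher were Ctgf, a growth factor target of TGF-beta (2.01, adjusted p = 1.9e-05), the collagen-hydroxylating enzymes Plod2 (1.64, adjusted p = 0.0004) and P4ha2 (0.69, adjusted p = 0.0074), and the collagen receptor Ddr1 (1.58, adjusted p = 1.3e-05). Elastin (Eln, 0.74, adjusted p = 0.031), Mfap4, Spp1, and Smad2 were higher by 0.50 to 0.74. Ltbp1, which holds latent TGF-beta (-0.73, adjusted p = 0.0049), and Reck, an inhibitor of metalloproteinases (-0.58, adjusted p = 0.020), were lower.

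In the table of BALB/C alone, of 21 tested genes of this list limma called 0 higher in BALB/C (1 at an unadjusted p below 0.05) and 3 lower: Tgfbi (-2.04, adjusted p = 0.018), a protein induced by TGF-beta, Ctgf (-1.17, adjusted p = 0.042), and P4hb (-0.43, adjusted p = 0.048). Over all 15818 tested rows, 472 were called higher and 476 lower. Ctgf thus was higher in the resistant strain of one table and lower in the resistant strain of the other, and its average difference was 0.33 (adjusted p = 0.35).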

How the data were processed

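Kidney cortex RNA of 15 mice was read on 18 Illumina Mouse BeadChips. The authors deposited intensity signals without normalization and a detection p-value for each probe, in 2 tables, one with B6 and NZW (46643 probes) and the other with the remaining strains (46147 probes). The scanner software was BeadStudio per the labels, and no normalization is given in the sources used here. There were 0 columns of other series.

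Groups are the strains of the labels, with 3 mice each. Where mouse 1 had 2 arrays, their log2 values were averaged. Repeat arrays correlated at 0.987 to 0.988, and arrays of different mice of a strain at 0.961 to 0.993. Probes were paired between the tables by search keys unique in both (19886 pairs). Background was removed by normexp with an offset of 16, using the detection p-values, before quantile normalization and log2. The filter asked for 3 or more mice with a detection p of at most 0.05, and the probes that passed were tested with lmFit and eBayes of limma 3.58.1 (R 4.3.3), with 1 coefficient per strain and Benjamini-Hochberg adjustment (Python 3.11.15 and pandas 2.3.3 for the tables). Fits within 1 table used that table's probes and normalization alone. A group below detection in all mice gives a bound, set against the dimmest detected probe of each array. The offset compresses differences of dim probes, and the number of arrays limits the precision.

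In simulated data with 200 probes changed by 1, the fit recovered 95% of them across strains (6896 probes) and 72% between B6 and NZW (16766 probes), and 4.04% and 2.7% of its calls had not been changed. Simulated mice were drawn independently around 1 mean per probe, with the change added after normalization. Other strain differences, outlying mice, and the compression of dim probes were thus left out, so these shares need not hold for the members. The members, the lists, and the alternatives were chosen with earlier results of these data known. Named are a fixed list of well-known matrix genes, all members called between resistant and sensitive strains, the 5 largest rises and falls of each other comparison, and genes whose probes disagree. The result of 1 listed gene is not reported here. Some others were named after their values were seen. Gene lists count 1 probe per gene, the brightest. Lists of endothelium, lymphocytes, platelets, neutrophils, and tubule segments were read too. The alternatives covered background correction, normalization, detection filter, replicate number, strain as a random block, repeat arrays, variance trend, the methods' t-test, a minimum size, and each mouse left out. Symbols are those of the deposited tables, which can be old. Promoters are from RefSeq (GRCm38.p6), where 95 of 143 genes had an entry.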

Additional observations from a re-analysis of the deposited data

Results flagged for a closer look

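For 3 members the difference between resistant and sensitive strains was unlike in the deposited tables by limma's test of the difference itself, with the B6 table's value subtracted. Adamts9 gave -3.27 (SE 0.17, adjusted p = 6.4e-09), with a difference of 3.15 between B6 and NZW and -0.12 between BALB/C and its table's sensitive strains. Itgb1bp1 gave -1.76 (SE 0.17, adjusted p = 4.5e-06), with -1.59 in the table of BALB/C and 0.16 between B6 and NZW. Sparc gave 0.82 (SE 0.22, adjusted p = 0.024), with 1.41 in the table of BALB/C and 0.59 between B6 and NZW. With 1 mouse left out at a time, the calls of Adamts9 and Itgb1bp1 held in 15 of 15 fits and that of Sparc in 11 of 15, with values of 0.65 to 0.96. Since strains of different tables were measured apart, table and strain cannot be told apart in these differences. Strain groups of 3 mice are too small for a check on single outlying mice.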

How the results depend on the processing

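Under the alternatives, the 49 calls of named members gave 1006 values, of which 816 stayed past the threshold in the same direction, 190 kept the direction without passing, and 0 reversed. Some of these fits left out a mouse of a strain outside the comparison, which cannot change the difference or its direction. Between resistant and sensitive strains 10 members were called, 2 with a log2 difference of at least 1, 0 of 8 probes detected in every mouse, 2 with strain as a random block (consensus correlation 0.17), 1 by the methods' t-test after Benjamini-Hochberg adjustment and 5 unadjusted, and 6 to 12 with a mouse left out (6 without B6 mouse 3). For BALB/C against DBA1 and 129/svj 9 were called, 2 when detected in every mouse, 1 by the t-test, and 6 to 13 with a mouse left out. For B6 against NZW across paired probes 5 were called, 3 at a difference of at least 1, 3 without background correction, 8 after 75th percentile scaling, 8 with each table normalized on its own, 0 when detected in every mouse, 3 without second arrays, 1 by the t-test and 11 unadjusted, and 1 to 7 with a mouse left out (1 without B6 mouse 3, 2 without NZW mouse 2, and 3 without NZW mouse 3 or B6 mouse 1 or 2). For DBA1 against 129/svj 4 were called, 0 when detected in every mouse, 1 by the t-test, and 3 to 8 with a mouse left out (8 without 129/svj mouse 3). For the difference of the within-table differences 3 were called, 5 after 75th percentile scaling, 0 when detected in every mouse, and 2 to 7 with a mouse left out (6 and 7 without 129/svj mouse 2 and 3); the t-test was not run on it. Within their own table B6 and NZW gave 21 calls, 7 at a difference of at least 1, 6 by the t-test, and 14 to 25 with a mouse left out. In the other table alone, BALB/C gave 6 calls, 0 when detected in every mouse, 1 by the t-test, and 2 to 7 with a mouse left out, and DBA1 against 129/svj gave 3, 0 when detected in every mouse, 1 by the t-test and 5 unadjusted, and 1 to 6 with a mouse left out. Scaling to the 75th percentile moved the median of all probes between B6 and NZW to -0.11 across paired probes. Calls over all probes moved too. Between resistant and sensitive strains they went from 451 higher and 376 lower to 65 and 40 with strain as a random block. They were 25 and 7 by the methods' t-test after adjustment, and 369 and 251 without B6 mouse 3. The strict filter tests fewer probes, and for the other changes the cause was not tested. Most members lie near the detection limit, which bounds what these arrays can show for dim probes.

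Mice of the same number were not paired: over 30 pairs of same-numbered mice of different strains the correlation of deviations ran from -0.223 to 0.356, with 4 above 0.1, and 5 of 15 mice correlated best with their own number. With the replicate number as a block, the comparison of resistant with sensitive strains called 9 members, BALB/C against DBA1 and 129/svj 9, B6 against NZW 4 and 22 in their own table, DBA1 against 129/svj 3, and the difference of differences 4. In the other table alone the block gave 9 and 3.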
